A study of Mus musculus with 6 samples.

Results

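The cytosolic ribosomal protein genes encode the protein parts of the large and small subunits of the cytosolic ribosome. They were taken as the genes whose symbols follow the pattern Rpl, Rps or Rplp with a number and at most a short suffix, leaving out Rps27l, and only where at least 1 probe set of the array was paired with that symbol alone. The brightest such probe set, by its mean over all arrays, stood for the gene. This gave 59 of the 19938 genes that the annotation pairs in this way. RNA of whole thymus from mice 10 days old was measured on 3 arrays of RUNX2/MYC mice (genotype CD2-Myc/CD2-Runx2, background C57BL6/CBA) and 3 arrays of wild-type (WT) C57/CBA mice, each labelled as its own biological replicate. In the RUNX2/MYC mice both transgenes are under control elements of CD2, which are active in the T-cell lineage, and mice with 1 transgene were not analysed here, so the shares of MYC and RUNX2 in any difference cannot be told apart. Values are log2 signals as the authors deposited them, and a log2 fold change is the RUNX2/MYC mean minus the WT mean. A gene was called higher or lower where the adjusted p from limma, a moderated linear model fitted to all 35556 probe sets with Benjamini-Hochberg adjustment over them, was under 0.05. Whole thymus holds thymocytes, epithelium, other leukocytes and stroma, so that fewer cells of a type and less RNA per cell cannot be told apart.

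Each ribosome needs close to equal amounts of its proteins, and their mRNAs are among the most abundant in dividing cells. These mRNAs begin with a run of pyrimidines, the 5′ TOP element, through which mTOR signalling and the LARP1 protein control their translation, so that much of their regulation acts on translation rather than on mRNA level. MYC is a well known activator of ribosome production, acting on ribosomal RNA synthesis, on assembly factors and on ribosomal protein genes. Many ribosomal protein genes also carry small nucleolar RNAs (snoRNAs), which guide the modification of ribosomal RNA, within their introns.

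The transgene separated the groups. Runx2, named through its probe set number in a table of the study, had a log2 signal of 11.73, 11.78 and 11.96 on the RUNX2/MYC arrays, against 7.94, 7.94 and 7.93 on the WT arrays. Thymocyte markers were bright in both groups, with array means over 9 of the 10 listed markers of 11.30 to 11.55 in RUNX2/MYC and 11.49 to 11.60 in WT. RUNX2/MYC replicate 1 stood between the groups, since over all probe sets it correlated at 0.989 and 0.990 with WT replicates 1 and 2 and at 0.987 and 0.986 with the other RUNX2/MYC arrays, and WT replicate 3 correlated at 0.988 with RUNX2/MYC replicate 3 and at 0.982 with WT replicate 1. The lowest correlation between any pair of arrays was 0.969. The counts of calls and the median of the ribosomal protein genes are therefore given with and without RUNX2/MYC replicate 1 and WT replicate 3. Most other values are given on all arrays only.

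Promoter windows of 250 bases before to 50 bases after the transcript start (RefSeq, build GRCm38.p6) were at hand for 47 of the 59 genes. Sequences are shown here only for genes that hold an ETS-type motif, some with larger log2 fold changes and some with values near 0. The motif (CCGGAAG on either strand, a site read by factors such as GABPA) is in capitals in the 100 bases before the start. Rpl12 and Rpl14, also called higher, had no such motif in their windows. Rps21 and Rps3a1 were called higher, Rps7 had a log2 fold change of 0.43, and Rps6 and Rpl41 had values of 0.011 and -0.016. The call of Rps3a1 rested on a probe set that does not list its own RefSeq mRNA. The brightest one that does had 0.24 (limma adjusted p = 0.169).
Rps21, chr2:180257279-180257378, plus strand: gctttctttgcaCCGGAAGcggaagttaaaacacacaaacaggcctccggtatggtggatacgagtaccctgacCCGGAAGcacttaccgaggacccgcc
Rps3a1, chr3:86142669-86142768, minus strand: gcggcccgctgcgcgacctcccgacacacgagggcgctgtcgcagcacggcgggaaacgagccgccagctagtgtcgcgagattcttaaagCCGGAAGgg
Rps7, chr12:28635954-28636053, minus strand: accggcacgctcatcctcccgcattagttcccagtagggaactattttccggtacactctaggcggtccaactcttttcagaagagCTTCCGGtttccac
Rps6, chr4:86857368-86857467, minus strand: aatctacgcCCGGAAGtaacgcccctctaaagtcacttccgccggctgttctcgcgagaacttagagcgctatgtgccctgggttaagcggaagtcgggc
Rpl41, chr10:128549169-128549268, minus strand: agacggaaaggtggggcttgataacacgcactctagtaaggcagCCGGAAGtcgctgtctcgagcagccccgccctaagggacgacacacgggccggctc

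The ETS-type motif was present in the whole 300-base window, on either strand, in 17 of the 47 genes (36.2%), against 9.93% of the windows of all 27025 genes. Genes with and without it had the same median log2 fold change, 0.26 in each. The E-box CACGTG, the palindrome bound by MYC with MAX, was present in 5 of the 47 genes (10.6%), against 8.09% of all genes, and the median log2 fold change was 0.32 for the genes with it and 0.24 for those without. Rpl14, one of the genes called higher, held 1 E-box, shown in capitals in a stretch further upstream of its start. The other called genes, Rps3a1, Rpl12 and Rps21, held none in their windows.
Rpl14, chr9:120571317-120571416, plus strand: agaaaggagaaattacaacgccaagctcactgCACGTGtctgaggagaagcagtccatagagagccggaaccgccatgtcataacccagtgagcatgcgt

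A single short pyrimidine run near the start site was searched for, as a rough stand-in for the 5′ TOP element. The run CTTTCC, read on the coding strand within 50 bases of the start, was present in 12 of the 47 genes (25.5%), against 5.43% of all genes, and the median log2 fold change was 0.22 with it and 0.26 without. Other pyrimidine runs were not counted, and a match did not have to lie at the start itself. These values therefore do not show which genes carry the element. Short stretches around the start of Rpl38, Rpl28 and Rps10, which run from 12 bases before the start to 17 bases after it, show the run in capitals.
Rpl38, chr11:114668568-114668597, plus strand: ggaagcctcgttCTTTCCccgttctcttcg
Rpl28, chr7:4792953-4792982, plus strand: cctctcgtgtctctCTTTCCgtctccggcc
Rps10, chr17:27635227-27635256, minus strand: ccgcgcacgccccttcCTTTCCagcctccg

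Most ribosomal protein genes had a slightly higher signal in RUNX2/MYC thymus, by a similar amount in many of them, and few passed the test one by one. Of the 59 genes 4 were called higher (6.78%) and 0 lower, against a background of 1.68% of all probe sets called higher and 0.127% lower. Before adjustment 37 genes passed a p of 0.05 with a higher and 1 with a lower signal, where 12% of all probe sets did so with a higher and 9.27% with a lower one. The test named in the study's methods, run per probe set on the same values, called 23 genes higher and 0 lower with q values under 0.05, and 1 higher with Benjamini-Hochberg adjustment. The median log2 fold change was 0.244, a 1.18-fold higher signal, with an interquartile range of 0.17 to 0.34. The median over all probe sets was -0.051.

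Direction was more uniform than the calls. The log2 fold change was above 0 in 55 of the 59 genes (93.2%), against 42.3% of all probe sets. In 46 genes (78%) every RUNX2/MYC array lay above every WT array, against 14.3% of all probe sets. Bright probe sets, those of the ribosomal protein genes included, leaned the same way. Among the 2121 probe sets with a mean log2 signal of 11 or more 67.5% had a log2 fold change above 0, and the median was 0.101. The groups did not overlap in 40.3% of them with the RUNX2/MYC arrays on top and in 9.76% with them below. Of these bright probe sets 1.7% were called higher and 0.377% lower. Without the probe sets of the 59 genes alone 1942 remained, some of them shared with ribosomal protein genes. Their array means were 12.06 to 12.07 in RUNX2/MYC and 11.99 to 12.01 in WT. The shares without ribosomal protein genes were not computed. The median of the ribosomal protein genes stayed above 0 under each scaling of the arrays that was tried, and its size moved, with a value of 0.328 after centring each array on its median and of 0.126 after cyclic loess. The distance to the median of all probe sets was 0.29 as deposited and 0.13 after cyclic loess.

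**Figure D1:**
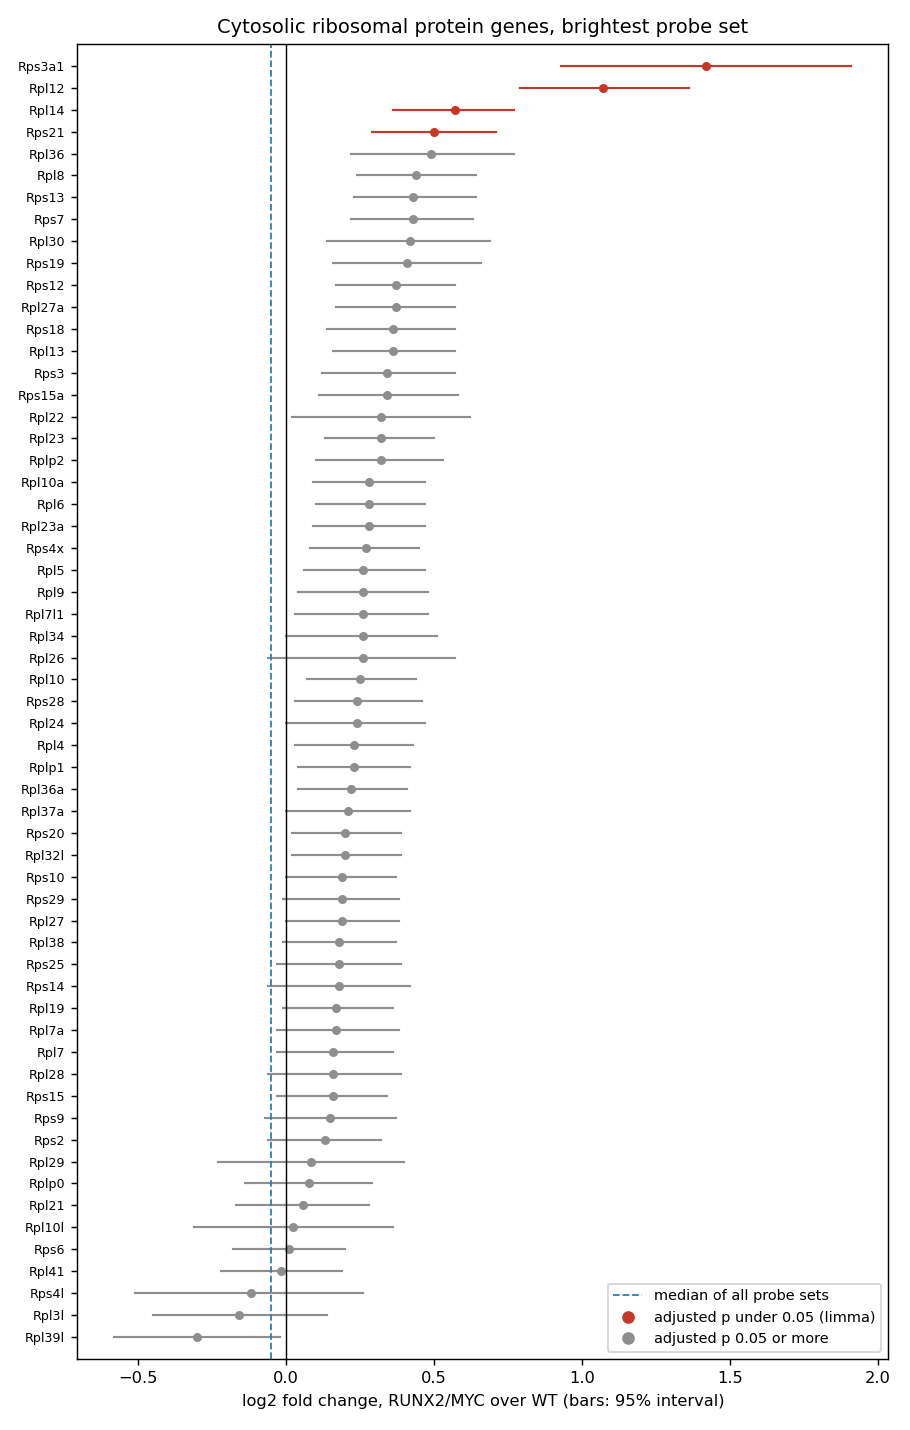
Log2 fold change (RUNX2/MYC over WT, x axis) of each ribosomal protein gene, with the 95% interval from limma as a bar, ordered by size. The 4 red genes passed an adjusted p under 0.05, and 55 of 59 points lie to the right of 0, where the median of all probe sets is -0.051.

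The 4 genes called higher were Rps3a1, Rpl12, Rpl14 and Rps21. Rps3a1, a protein of the small subunit, had log2 signals of 11.50, 11.11 and 10.92 on the RUNX2/MYC arrays, against 9.44, 9.73 and 10.09 on the WT arrays. All RUNX2/MYC arrays lay above all WT arrays, and the spread within each group (SD 0.30 and 0.33, n = 3 each) was the widest among the 4. Its log2 fold change was 1.42 (95% interval 0.93 to 1.91, limma adjusted p = 0.0283). Rpl12, which sits at the base of the stalk of the large subunit, had signals of 9.05, 9.23 and 9.35, against 8.24, 7.96 and 8.21, again without overlap. The log2 fold change of Rpl12 was 1.07 (0.79 to 1.36, limma adjusted p = 0.0159).

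The other two changed by less and rested on tight replicates. Rpl14, a protein of the large subunit, had signals of 9.57, 9.52 and 9.62 in RUNX2/MYC and 8.90, 9.05 and 9.06 in WT, a log2 fold change of 0.57 (0.36 to 0.77, limma adjusted p = 0.0329). Rps21, a small protein of the small subunit, had signals of 10.75, 10.69 and 10.58 in RUNX2/MYC and 10.11, 10.24 and 10.18 in WT, a log2 fold change of 0.50 (0.29 to 0.71, limma adjusted p = 0.0479). Rps21 had a second probe set of its own at a lower mean signal of 8.50, also called higher, with a log2 fold change of 0.81 (limma adjusted p = 0.0405). Neither Rpl14 nor Rps21 kept its call under quantile normalization (limma adjusted p = 0.0543 and 0.1), where Rps3a1 and Rpl12 did. Without any 1 of RUNX2/MYC replicates 2 and 3 or WT replicates 1 and 2, none of the 59 genes was called and the whole table held 3 or 4 calls. Dropping RUNX2/MYC replicate 1 left 3 genes called, beside 872 probe sets higher and 718 lower in the whole table. Dropping WT replicate 3 left 2, beside 540 higher and 75 lower. Dropping both of these intermediate arrays gave 13, beside 5035 higher and 7192 lower.

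**Figure D2:**
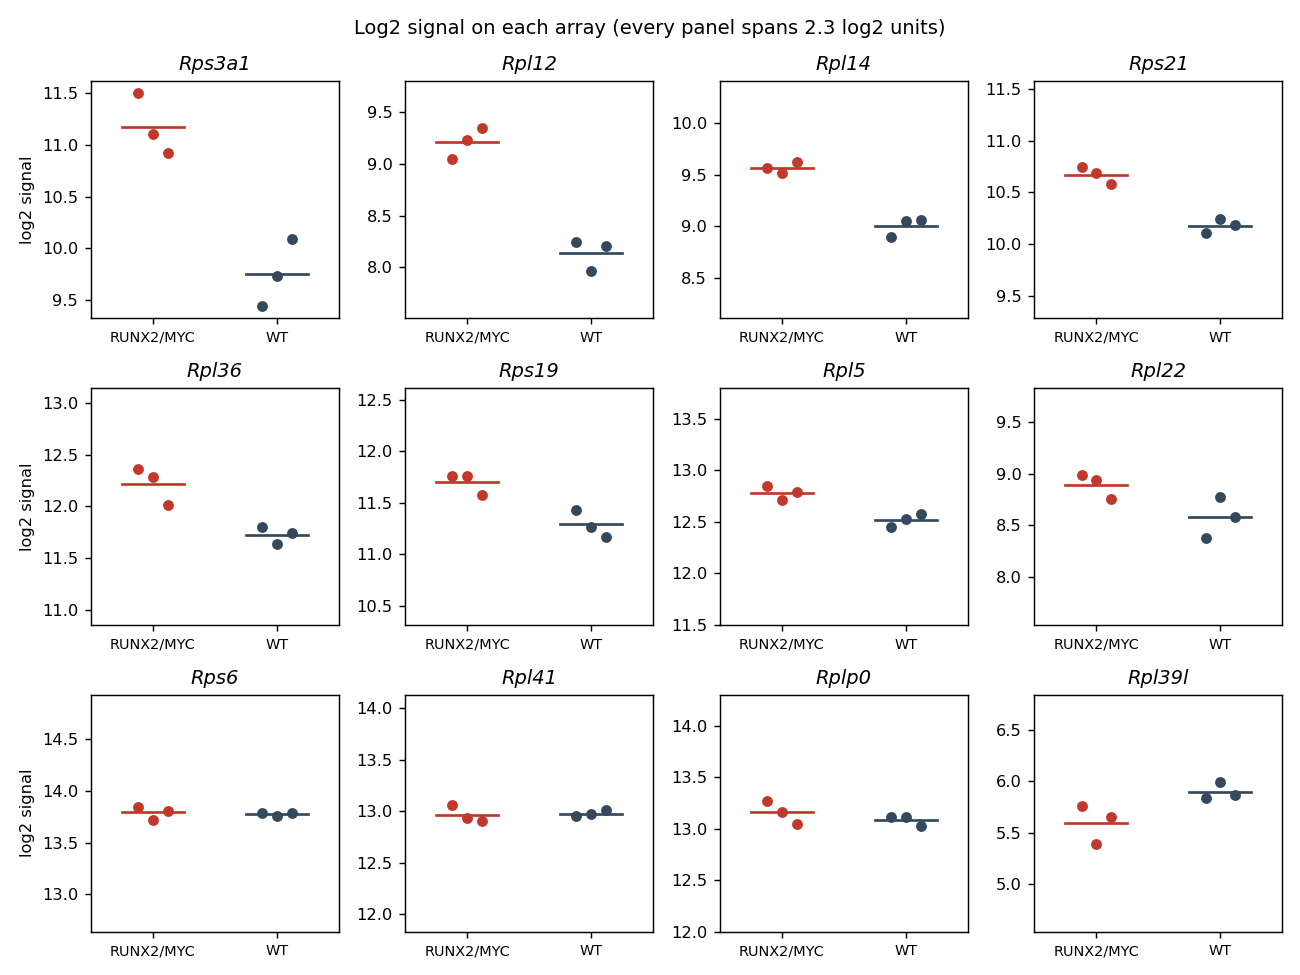
Log2 signal (y axis) on each array for 12 ribosomal protein genes, RUNX2/MYC in red and WT in dark blue, with lines at the group means (n = 3 each) and panels that all span the same number of log2 units. Rps3a1 ran from 10.92 to 11.50 in RUNX2/MYC and from 9.44 to 10.09 in WT, while the groups overlapped for Rps6, Rpl41 and Rplp0.

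The values of Rps3a1 and Rpl12 depended on which probe set was read. The probe set chosen for each lists 1 cDNA record and not the gene's own RefSeq mRNA, and other probe sets that do list it are shared with a second symbol. For Rps3a1, a pair of probe sets shared with Tapbp had mean signals of 12.17 and 12.06 and log2 fold changes of 0.24 and 0.22 (limma adjusted p = 0.169 and 0.185). For Rpl12, 7 probe sets shared with Gm32899 had mean signals of 13.26 to 13.61 and log2 fold changes of 0.20 to 0.24, while 1 probe set shared with Snora65, a snoRNA within the gene, had a mean signal of 8.85 and a log2 fold change of 1.09 (limma adjusted p = 0.0432). The larger values of both genes thus came from dimmer probe sets than those that list their own mRNA. Across the list, 56 of the 59 chosen probe sets list the gene's own RefSeq transcript, the others being Rps3a1, Rpl12 and Rplp2. With those 56 alone 2 genes were called higher, 0 lower, and the median log2 fold change was 0.23.

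Other genes with a snoRNA on 1 of their probe sets went in both directions. Rps13, a protein of the small subunit, had 3 probe sets of its own with log2 fold changes of 0.43 to 0.46, while the probe set it shares with Snord14a had a mean signal of 7.82 and a log2 fold change of 1.16 (limma adjusted p = 0.0678). Rpl13, of the large subunit, had 9 probe sets between 0.32 and 0.40, and the probe set it shares with Snord68 had a mean signal of 8.50 and a log2 fold change of 0.67 (limma adjusted p = 0.0292). Rpl13a, also of the large subunit, was the other way round, with 0.39 and 0.40 on probe sets that name no snoRNA and 0.17 and -0.079 on those shared with Snord34 and Snord32a. Rpl26, which binds the mRNA of p53 in mammalian cells, differed without a snoRNA. Its single own probe set had a log2 fold change of 0.26 (limma adjusted p = 0.297) at a mean signal of 9.60, and the 3 probe sets shared with Gm15772 had 0.48 to 0.59 at 11.07 to 11.41, of which the largest was called higher (limma adjusted p = 0.0437).

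**Figure D3:**
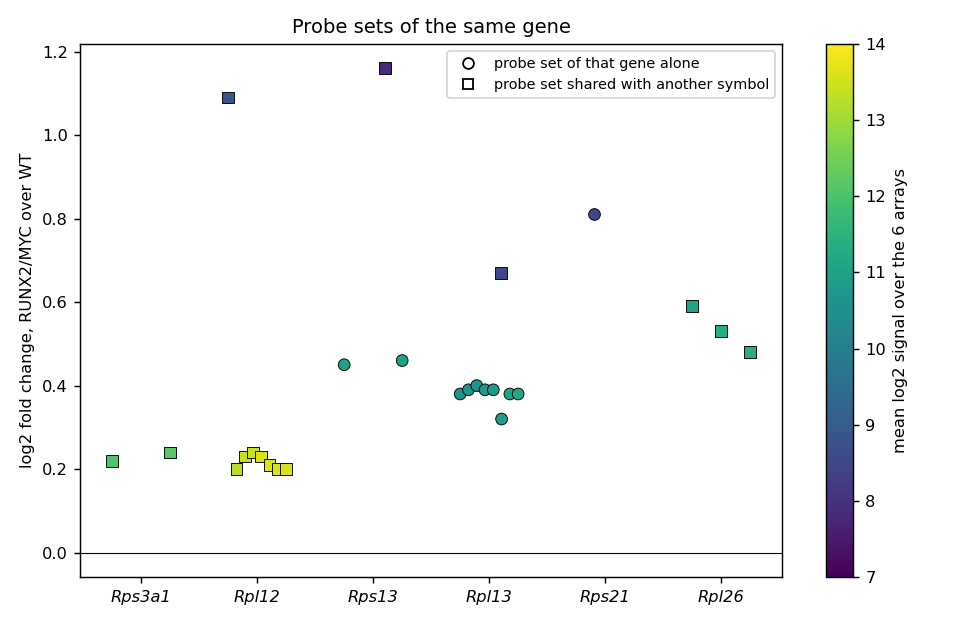
Log2 fold change (RUNX2/MYC over WT, y axis) of probe sets of 6 ribosomal protein genes, circles for probe sets of that gene alone and squares for those shared with another symbol, coloured by mean log2 signal. The brightest own probe set of each gene is not drawn, which leaves Rps3a1, Rpl12 and Rpl26 with squares only. For Rps3a1 and Rpl12 the squares lie near 0.2, except the Rpl12 probe set shared with Snora65, at 1.09. Their own probe sets, not drawn, had 1.42 for Rps3a1 and 1.07 for Rpl12.

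Where genes had several probe sets of their own, these mostly moved together. In all, 211 probe sets were paired with 1 of the 59 genes alone, 21 genes having 1 and 38 having several, up to 14 for Rps12. The range of log2 fold changes among a gene's own probe sets had a median of 0.08, and Rps12 ran from 0.31 to 0.45. The widest range was that of Rps2, 0.13 at its brightest probe set (mean signal 13.28) and 0.50 at its dimmest (12.50). These probe sets share target sequence, and they are not replicates of the gene.

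The genes of the large and the small subunit had the same median. The 30 large subunit genes had a median log2 fold change of 0.26 with 2 called higher, and the 20 small subunit genes had a median of 0.26 with 2 called higher. After the called genes, the largest value in the large subunit was that of Rpl36, at 12.36, 12.29 and 12.01 in RUNX2/MYC, against 11.80, 11.64 and 11.74 in WT, with a log2 fold change of 0.49 (SE 0.12, limma adjusted p = 0.0907). Rpl8, a protein next to the peptidyl transferase centre, had 12.21, 12.22 and 12.10, against 11.67, 11.76 and 11.78 (log2 fold change 0.44, SE 0.084, limma adjusted p = 0.056). In the small subunit Rps7 and Rps13 each had a log2 fold change of 0.43 (limma adjusted p = 0.062 and 0.0615). These 4 genes had no overlap between the groups, an order shared by 78% of the 59 genes, and did not pass the threshold.

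Rpl5 and Rpl11 bind the 5S ribosomal RNA, and as a free complex they bind MDM2, the ubiquitin ligase of p53. Rpl5 had signals of 12.85, 12.71 and 12.79 in RUNX2/MYC and 12.45, 12.53 and 12.58 in WT, without overlap, and a log2 fold change of 0.26 (95% interval 0.06 to 0.47, limma adjusted p = 0.172). Rpl11 was read only by 6 probe sets shared with Brf2, with log2 fold changes of 0.28 to 0.35, none of them called. Rpl22, which in mice is needed for the development of alpha-beta T cells, had 8.99, 8.94 and 8.76, against 8.38, 8.78 and 8.58, so that the groups overlapped (log2 fold change 0.32, limma adjusted p = 0.222). Its close relative Rpl22l1 was on probe sets shared with Gm15421, the brighter of which had 8.18, 8.31 and 8.49, against 7.63, 7.57 and 8.01 (log2 fold change 0.59, limma adjusted p = 0.0977). The difference between the pair was not tested.

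A few genes are known for disease or mouse phenotypes when mutated. Rps19, mutated in human Diamond-Blackfan anaemia, had 11.76, 11.76 and 11.58 in RUNX2/MYC and 11.43, 11.27 and 11.17 in WT (log2 fold change 0.41, limma adjusted p = 0.106). Rpl10, mutated in some human T-cell leukaemias, had 13.53, 13.50 and 13.51, against 13.32, 13.24 and 13.22 (0.25, limma adjusted p = 0.16). Rpl24, the gene of the mouse Belly spot and tail mutation, and Rpl38, that of Tail short, had log2 fold changes of 0.24 and 0.18 (limma adjusted p = 0.231 and 0.253). Each of these 4 genes was without overlap, as were 78% of the 59 genes and 14.3% of all probe sets, and none was called.

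The stalk proteins recruit the GTPases that drive translation. Rplp0, their anchor, had 13.27, 13.16 and 13.05 in RUNX2/MYC and 13.11, 13.11 and 13.03 in WT, with a log2 fold change of 0.077 (limma adjusted p = 0.612) that was -0.02 after centring on the 75th percentile. Rplp1 had 13.44, 13.49 and 13.46, against 13.19, 13.30 and 13.20 (0.23, limma adjusted p = 0.189). Rplp2, read by a probe set that does not list its own RefSeq mRNA, had a log2 fold change of 0.32 (limma adjusted p = 0.138). Only Rplp0 of these 3 overlapped between the groups.

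The 3 brightest genes were Rps6, Rpl21 and Rps15, and they are given here with Rpl41, whose value was also near 0. Rps6, the ribosomal substrate of S6 kinases, had 13.85, 13.72 and 13.81 in RUNX2/MYC and 13.79, 13.76 and 13.79 in WT, with a log2 fold change of 0.011 (95% interval -0.18 to 0.20, limma adjusted p = 0.941). Its 8 probe sets ran from -0.13 to 0.01. Rpl21 had 13.67, 13.47 and 13.56, against 13.60, 13.47 and 13.46 (0.058, 95% interval -0.17 to 0.28, limma adjusted p = 0.71). Its value rested on that brightest probe set, since its 8 other own probe sets ran from 0.13 to 0.27, 6 of them without overlap between the groups, and the 32 it shares with other symbols ran from 0.13 to 0.23, none of them called. Rps15, of the small subunit, had 13.53, 13.50 and 13.48, against 13.33, 13.34 and 13.38, without overlap (0.16, limma adjusted p = 0.282). Rpl41, the smallest ribosomal protein, had 13.06, 12.93 and 12.90, against 12.95, 12.97 and 13.01 (-0.016, 95% interval -0.22 to 0.19, limma adjusted p = 0.918). On these probe sets the groups overlapped for Rps6, Rpl21 and Rpl41, and the sign of each of the 3 turned under at least 1 other scaling of the arrays, to -0.086 for Rps6 and -0.039 for Rpl21 after centring on the 75th percentile and to 0.068 for Rpl41 after centring on the median.

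Paralogues were the genes with most of the negative values. The 6 paralogues and relatives present (Rpl3l, Rpl7l1, Rpl10l, Rpl32l, Rpl39l and Rps4l) had a median log2 fold change of -0.05, with 3 of 6 above 0 and 0 called. Rpl39l, known from testis, had 5.76, 5.39 and 5.65 in RUNX2/MYC and 5.84, 5.99 and 5.87 in WT, the one gene of the 59 in which every RUNX2/MYC array lay below every WT array (log2 fold change -0.30, 95% interval -0.58 to -0.02, limma adjusted p = 0.213), where 10.1% of all probe sets had this order. Rpl3l, of heart and skeletal muscle, had -0.16 (limma adjusted p = 0.451), and Rps4l, a transcribed pseudogene in RefSeq, had -0.12 (limma adjusted p = 0.641). Rpl10l, a testis gene, had 0.025 at a mean signal of 6.11. Rpl3l, Rpl10l and Rpl39l had mean signals under 7, where the median of all probe sets was -0.11. Of their widely expressed counterparts Rpl3 had 0.33 and Rps4x 0.27, and the brightest probe set of Rpl39, shared with Gm32211, had -0.056, a sign that turned to 0.028 after centring on the median. Rpl7l1, which acts in ribosome assembly, had 0.26 (limma adjusted p = 0.2), against 0.16 for Rpl7.

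A further 17 ribosomal protein genes were read only by probe sets shared with another symbol. The brightest probe set of each had a log2 fold change between -0.06 (Rpl39) and 0.59 (Rpl22l1), none was called, and all but Rpl39 were above 0. They included Rpl13a and Rps23 at 0.39 each, Rpl37 at 0.37 and Rpl17 at 0.15. Taking for every gene the brightest probe set that lists its own RefSeq transcript, shared or not, gave 75 genes with 2 called higher, 0 lower, 71 above 0 and a median of 0.24.

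The genes lay near the top of the signal range. Their median mean signal was at the 97.8th percentile of all probe sets, 41 of 59 were at the 95th percentile or above and 15 at the 99th or above, while the highest signal on any array was 14.56. Only Rps6 lay within 1 log2 unit of that value. Among genes other than the paralogues, brighter ones had smaller log2 fold changes (Pearson r = -0.53, Spearman rho = -0.60 across 53 genes measured on the same arrays, a description across genes, which are not independent replicates). Over all 59 genes, with the dim paralogues included, Pearson r was 0 and rho -0.29, and over all 211 own probe sets r was -0.17 and rho -0.48. Genes with a signal of 9 to 11 had a median of 0.38, against 0.12 for all probe sets in that range, and those of 13 or more had a median of 0.17, against 0.05. The same order held within genes, since centring each gene's own probe sets gave r = -0.47 over 190 probe sets, and in 25 of the 38 genes with several probe sets the brightest had a smaller log2 fold change than the dimmest. The part of saturation in these small values was not tested. Leaving out all probe sets within 1 log2 unit of the highest signal kept the number called at 4 and gave a median of 0.249. This removed only Rps6 of the 59 genes, and the called genes had mean signals of 8.67 to 10.46, so neither value could move much.

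**Figure D4:**
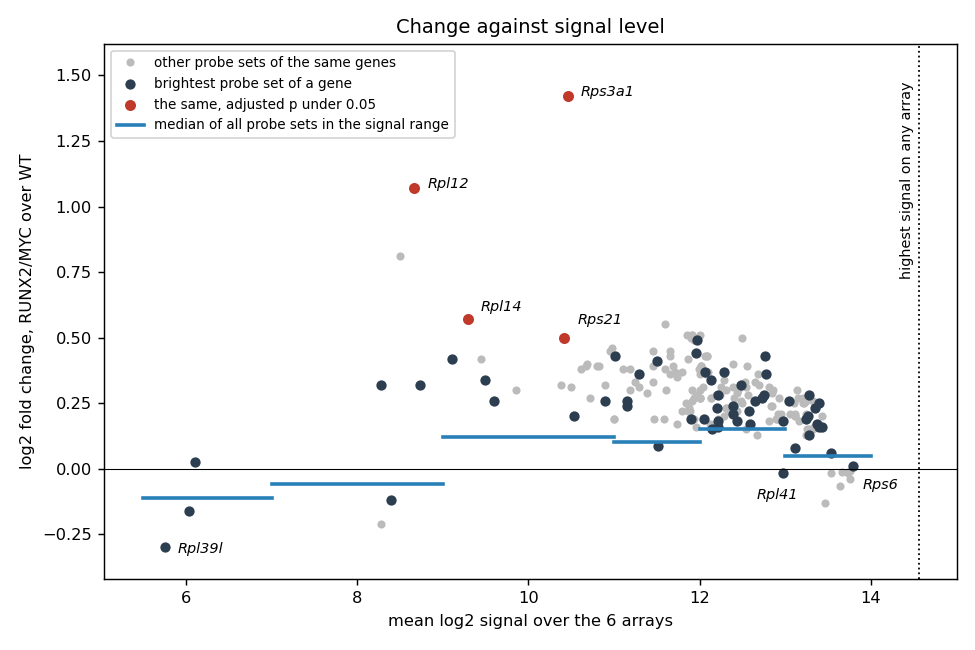
Log2 fold change (RUNX2/MYC over WT, y axis) against mean log2 signal over the 6 arrays (x axis) for all probe sets paired with 1 ribosomal protein gene alone, with the median of all probe sets of the array in each signal range as a blue line and the highest signal, 14.56, as a dotted line. Genes with a signal of 13 or more had a median of 0.17 and those of 9 to 11 a median of 0.38.

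The arrays of a group were not alike. The mean over the 53 genes other than the paralogues was 12.16, 12.13 and 12.08 on RUNX2/MYC replicates 1 to 3, against 11.81, 11.82 and 11.86 on WT replicates 1 to 3. RUNX2/MYC replicate 1 was above its group mean in 44 of the 53 genes and replicate 3 in 9, while WT replicate 3 was above its group mean in 36. The highest signal of all 6 arrays was on RUNX2/MYC replicate 1 in 31 genes, and the lowest was on WT replicate 1 in 29. The groups stayed apart on every array nonetheless, and leaving out RUNX2/MYC replicate 1 gave a median log2 fold change of 0.232, leaving out WT replicate 3 gave 0.265, and leaving out both gave 0.253. RUNX2/MYC replicate 1, closest to WT over all probe sets, was thus not the closest to WT in these genes.

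snoRNAs within ribosomal protein genes were examined after the probe sets shared with Snora65, Snord14a and Snord68 had been seen. RefSeq places 50 snoRNAs inside those ribosomal protein genes that a probe set reads, alone or shared, and 21 of them had a probe set, 24 probe sets in all within 16 host genes. Of the 24 probe sets 6 were called higher (25%) and 0 lower, 23 had a log2 fold change above 0, and the median was 0.58. Without the 3 snoRNAs that prompted the search, 4 of 21 probe sets were called higher (19%), belonging to 3 snoRNAs, and the median was 0.41. Of the 74 other snoRNA probe sets 2 were called higher (2.7%) and 0 lower, with a median of -0.07. The snoRNA had a larger log2 fold change than the mRNA of its host in 14 of the 20 snoRNAs that had both. The 14 include the 3 snoRNAs that prompted the search, and this count was not repeated without them. In all 20 pairs the host was read at a higher signal than the snoRNA, such as 13.82 for Rpl39 and 9.35 for Snora69. Brighter probe sets of ribosomal protein genes had smaller log2 fold changes, and the part of signal level in this comparison was not tested.

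Several snoRNAs lay in genes whose mRNA, read by the brightest probe set that lists the host's own RefSeq transcript, had a smaller value. Snord42b, a box C/D snoRNA in Rpl23a (chr11:78183059-78183113), had 9.36, 9.48 and 9.72 in RUNX2/MYC and 8.22, 7.80 and 8.49 in WT, a log2 fold change of 1.35 (limma adjusted p = 0.0249), where Rpl23a itself had 0.28 (limma adjusted p = 0.14). Snora69, a box H/ACA snoRNA in Rpl39 (chrX:37082912-37083033), had 9.80, 9.79 and 10.11, against 8.63, 8.61 and 9.17 (1.1, limma adjusted p = 0.0371), where Rpl39 had -0.06. Snora21 in Rpl23 was called higher on both of its probe sets, at 0.93 and 0.89 (limma adjusted p = 0.0266 and 0.0283), where Rpl23 had 0.32. Snora65 in Rpl12 had 1.09 (limma adjusted p = 0.0432) beside 0.20 on that reading of Rpl12, whose dimmer own probe set was among the 4 called higher. Snord16a in Rpl4 had 1.17 (limma adjusted p = 0.0604) beside 0.23 for Rpl4. The groups did not overlap in any of these snoRNAs, which were named for their large values, where 14.3% of all probe sets had this order. Others did not follow, and Snord32a in Rpl13a had a log2 fold change of -0.08 beside 0.39 for its host. A probe set on a snoRNA also reads the intron that holds it, and the values do not separate mature snoRNA from unspliced host RNA.

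**Figure D5:**
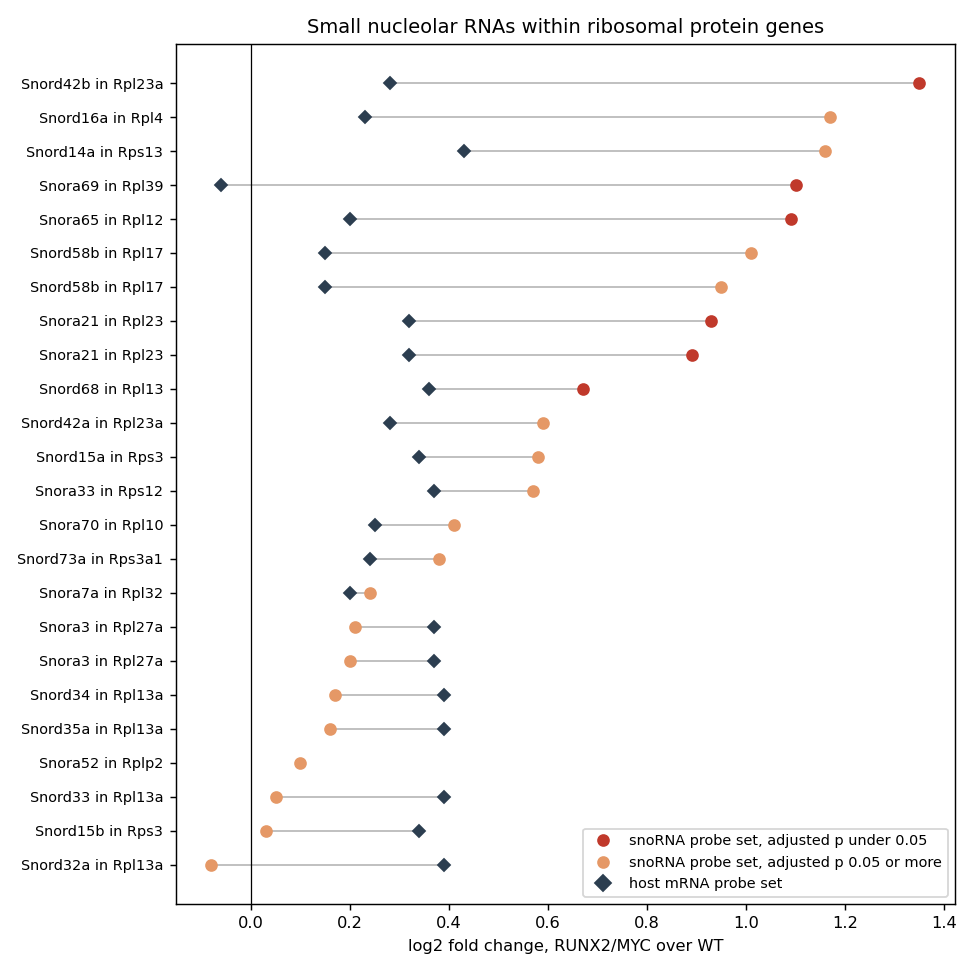
Log2 fold change (RUNX2/MYC over WT, x axis) of 24 probe sets of snoRNAs within ribosomal protein genes (circles, red where the adjusted p was under 0.05) and of the mRNA of the same host gene (diamonds, none where no probe set lists the host's own mRNA). Snord42b in Rpl23a, Snora69 in Rpl39 and Snora65 in Rpl12 lie at 1.09 to 1.35, with their hosts at -0.06 to 0.28.

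Factors that assemble ribosomes without being part of them gave more calls, and the difference from the ribosomal proteins was not tested. Of all probe sets 1.68% were called higher, and this share varied with mean signal. It was 2% at 7 to 9 and 4.49% at 9 to 11, where most of these factors lay. At 12 to 13 it was 0.628% and at 13 or more 0%, where most ribosomal protein genes lay. The part of signal level in the contrast was not tested. Of 31 measured factors of small subunit assembly 20 were called higher and 0 lower, with a median log2 fold change of 0.64, and of 29 factors of large subunit assembly 16 were called higher and 0 lower, with a median of 0.58. All 31 and all 29 had a log2 fold change above 0. Tsr1, a late factor of the small subunit, had 9.41, 9.55 and 9.68 in RUNX2/MYC and 8.42, 8.63 and 8.79 in WT (0.93, limma adjusted p = 0.0234). Rrp1b, of the large subunit, had 9.54, 9.42 and 9.65, against 8.34, 8.25 and 8.52 (1.17, limma adjusted p = 0.014). Of 14 genes for ribosomal RNA synthesis 5 were called higher and 0 lower, with a median of 0.35, and Polr1b, the second largest subunit of RNA polymerase I, had the largest value of these (0.97, limma adjusted p = 0.014).

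Partners of ribosomal proteins were mixed, beside 1.68% of all probe sets called higher. Of 15 chaperones and importers of ribosomal proteins 1 was called higher, Grwd1, with a log2 fold change of 0.69 (limma adjusted p = 0.0271), and the median was 0.31. Bccip, the chaperone of Rpl23, had 0.62 (limma adjusted p = 0.0528), and Heatr3, which in yeast and human cells escorts Rpl5, had -0.22 (limma adjusted p = 0.318). Around the 5S complex 3 of 6 measured genes were called higher, namely Gnl3 (1.00, limma adjusted p = 0.014), Rrs1 (0.80, limma adjusted p = 0.0331) and Rpf2 (0.63, limma adjusted p = 0.0296), of which Rrs1 and Rpf2 bring the 5S complex to the ribosome and Gnl3 is the nucleolar protein nucleostemin. Mdm2 itself had 9.01, 9.45 and 9.50 in RUNX2/MYC and 9.11, 9.15 and 9.60 in WT, with overlap (limma adjusted p = 0.917).

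Other mRNAs with a 5′ TOP element had values like those of the ribosomal proteins. None of the 16 measured, mostly translation factors, was called, all were above 0, and the median log2 fold change was 0.23. They ran from 0.014 for Tpt1 to 0.45 for Npm1 (limma adjusted p = 0.917 and 0.0615). Of 12 regulators of these mRNAs, such as LARP1 and mTOR components, none was called and the median was 0.18. Rpsa and Fau, ribosomal protein genes whose symbols do not follow the pattern, had 0.30 and 0.15 (limma adjusted p = 0.135 and 0.367).

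Some markers of other cell types were high on single arrays, and no marker was called. Adipocyte markers (8 of 8 measured) had array means of 7.27 to 8.81 in RUNX2/MYC and 7.02 to 7.44 in WT, the highest on RUNX2/MYC replicate 2. Erythroid markers (2 of 6 measured, Alas2 and Slc4a1) had array means of 8.65 to 9.97 in RUNX2/MYC and 8.19 to 8.55 in WT, the highest on RUNX2/MYC replicate 1, the array with the highest mean of the ribosomal protein genes. Markers of thymic epithelium (8 of 8) had 9.57 to 9.71, against 9.90 to 10.03, and those of B cells (5 of 6) had 7.29 to 7.48, against 7.53 to 7.67. Markers of dendritic cells and macrophages (6 of 7) had 7.89 to 7.90, against 8.0 to 8.05, and those of fibroblasts (5 of 5) had 8.15 to 8.44, against 8.37 to 8.57. The thymocyte markers went both ways, with 4 of the 9 measured above 0 and a median log2 fold change of -0.02. Rag1 and Cd4, with the most negative values, had log2 signals of 11.69 to 12.17 and 10.80 to 11.47 in RUNX2/MYC, against 12.38 to 12.72 and 11.82 to 12.07 in WT (limma adjusted p = 0.0963 and 0.091). Cd3d, with the largest positive value, had 10.78 to 11.04, against 10.48 to 10.67 (log2 fold change 0.32, limma adjusted p = 0.18). The part of cell composition in the values of the ribosomal protein genes was not tested.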

How the data were processed

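The authors deposited 1 table of log2 signals, made with Affymetrix MoGene-1 arrays. Per the submitters' processing notes these were computed by RMA (background correction, normalization between arrays and summary over the probes of a probe set) in Affymetrix Expression Console 1.4. The study's methods instead describe RMA in the Partek software, after a correction for GC content, and which of them made the table was not settled. The deposited values were used unchanged. Among 35556 probe sets, 21789 carry a single gene symbol in the platform annotation, 1621 carry more than 1, and 12146 are unnamed. RUNX2/MYC and WT (3 arrays each) were compared with limma 3.58.1 in R 4.3.3 (lmFit and eBayes, no block, Benjamini-Hochberg over all probe sets), which was tested on simulated data. Array scalings, filters on dim and bright probe sets, an intensity trend, array weights, the ANOVA of the methods with q values, a replicate block and leaving out arrays were tried. Genes named are the called ones, the 5 largest and smallest log2 fold changes, the 3 brightest and dimmest, and genes named by role, besides those named as seen in the data. The ribosomal protein genes and all lists were chosen with earlier results of these data known. Precision is limited by the number of arrays. With 10 possible splits of 3 and 3, an exact permutation test of a single value stops at p = 0.1. No sample pair held identical values beyond 0.0506% of probe sets. RefSeq gene records were matched by gene identifier, and all 59 genes matched. Promoter sequences (GRCm38.p6) were matched by symbol and were at hand for 47 of them.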

Additional observations from a re-analysis of the deposited data

How the results depend on the processing

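The number of ribosomal protein genes called higher was 4, and 0 were called lower, with a median log2 fold change of 0.244, beside 596 probe sets higher and 45 lower in the whole table. Centring on array medians gave 7 genes, a median of 0.328 and 915 probe sets higher. Centring on the 75th percentile gave 2 genes, 0.148 and 209 probe sets higher. Quantile normalization gave 2 genes, 0.144 and 98 probe sets lower, and cyclic loess gave 2 genes, 0.126 and 124 lower. Without dim probe sets 85 probe sets were lower. An intensity trend in the variance gave 19 genes, with 1054 probe sets higher and 104 lower. Array weights, which ran from 0.418 to 3.26, gave 30 genes higher and 1 lower, with 5766 probe sets higher and 7318 lower. The ANOVA of the methods gave 23 genes, 1213 higher and 247 lower with q values, and 1 gene and 162 higher with Benjamini-Hochberg adjustment. Choosing probe sets that list the gene's own RefSeq transcript, added after seeing the data, gave 2 genes, with or without shared probe sets. Leaving out RUNX2/MYC replicate 1 and WT replicate 3 together, also added after seeing the data, gave 13 genes, with 5035 probe sets higher and 7192 lower. The cause of these shifts was not tested.

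Leaving out 1 array at a time gave 0 to 3 genes called higher, medians of 0.217 to 0.265, 3 to 872 probe sets higher and 0 to 718 lower. The replicate number as a block gave 9 genes higher, with 1654 probe sets higher and 763 lower. The numbers do not pair the arrays by any label, the deviations of same-numbered arrays correlated at 0.50, -0.15 and 0.61, and the block is given as a count only.

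Among 29 named genes and 18 alternatives, 438 of 517 values kept their direction and side of the threshold, 29 lost the call, 28 gained it and 22 changed sign, all 22 of genes that were not called. On centring by the median Rpl39 had 0.028 and Rpl41 0.068. On centring by the 75th percentile Rpl10l had -0.072, Rpl21 -0.039, Rplp0 -0.02 and Rps6 -0.086. Under cyclic loess Rpl21 had -0.011, Rplp0 -0.0059 and Rps6 -0.049, and with array weights Rpl10l had -0.024. Without both intermediate arrays Rpl10l had -0.095, Rpl21 -0.019, Rplp0 -0.005 and Rps6 -0.013. With 1 array left out Rpl10l ran from -0.13 to 0.12, Rpl39 ran from -0.11 to 0.019, Rpl41 ran from -0.066 to 0.016, Rps4l ran from -0.21 to 0.03 and Rps6 ran from -0.016 to 0.048. The signal of most of these genes lies above the 95th percentile of the array, and the part of saturation in their values was not tested.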
